A study of Homo sapiens with 12 samples.

Results

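The subunits of complexes I to IV of the mitochondrial respiratory chain were followed in 3 human multiple myeloma lines, each measured after coculture with bone marrow stroma and alone. The members were taken by gene symbol. They were the probe sets annotated with a single symbol that starts with NDUFA, NDUFB, NDUFC, NDUFS, NDUFV or UQCR, or with COX4, COX5, COX6, COX7 or COX8, or that is SDHA, SDHC or SDHD. This gave 71 of 19775 genes, on 134 of the 54675 probe sets of the Affymetrix U133 Plus 2.0 array. Of these, 59 genes code for subunits, with 33 in complex I, 3 in complex II, 6 in complex III and 17 in complex IV. The name rule also took in 8 assembly factors of complex I (NDUFAF1 to NDUFAF8, on 16 probe sets) and 4 antisense, divergent or pseudogene transcripts (on 5 probe sets), which are kept apart below. NDUFS5, NDUFS8, NDUFC2 and UQCRH share their probe sets with other symbols and were not taken, and SDHB and UQCRFS1 were not analysed here.

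The groups were MM.1S, MM.1R and INA-6 cells that had spent 24 hours with HS-5, a human stromal line, and the same lines kept alone for as long. All 3 lines stably carried green fluorescent protein (GFP), and the GFP-positive cells were separated from the unlabelled HS-5 cells by cell sorting before total RNA was taken. MM.1S responds to dexamethasone, MM.1R is a derivative selected for resistance to it, and INA-6 needs interleukin 6 to grow. Each of the 6 groups had 2 arrays, described by the submitters as technical replicates, so p-values within a line measure only the spread between duplicate arrays. The design asks how contact with stroma changes each line's expression profile.

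The respiratory chain sits in the inner mitochondrial membrane. Complex I (NADH dehydrogenase) and complex II (succinate dehydrogenase) pass electrons to ubiquinone, complex III (the cytochrome bc1 complex) passes them on to cytochrome c, and complex IV (cytochrome c oxidase) hands them to oxygen. Complexes I, III and IV pump protons as they do so, and ATP synthase uses the gradient. Most subunits are coded in the nucleus and imported, while the hydrophobic core of complexes I, III and IV is coded in mitochondrial DNA, so that the supply of both has to be matched. Plasma cells and myeloma cells secrete or fold much protein and draw on oxidative phosphorylation for ATP.

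Several properties of the arrays differed between the groups and stand beside all results below. The 3′ to 5′ signal ratio of the ACTB control probe sets, which is high where transcripts are shortened, was 5.10 ± 0.191 after coculture and 22.4 ± 0.456 alone in MM.1S (SD, n = 2 each). In MM.1R it was 5.21 ± 0.285 after coculture and 31.4 ± 1.16 alone. INA-6 had 32.0 ± 0.531 after coculture and 5.51 ± 0.291 alone, so that the order of coculture and alone in INA-6 was opposite to that in both other lines. A list of 30 stromal markers, 26 of them tested, summed to 14620 to 14713 after coculture and 1935 to 1963 alone in MM.1S, to 29009 to 29756 against 2089 to 2113 in MM.1R, and to 13704 to 13721 against 3659 to 5408 in INA-6. Between 23 and 24 of the 26 lay above their array's median after coculture, against 11 to 15 alone. The plasma cell markers, 11 of 11, lay above the median in every group. The bacterial spike-in control BioB averaged 374 ± 16.7 after coculture and 1984 ± 95.7 alone in MM.1S, 422 ± 87.7 after coculture and 594 ± 15.3 alone in MM.1R, and 834 ± 4.64 after coculture and 3734 ± 282 alone in INA-6 (SD, n = 2 each). The part of RNA quality, of stromal RNA or of the spike-in level in the results below was not tested, and in sorted bulk samples a change in the mix of cells and a change in RNA per cell cannot be told apart. The INA-6 alone duplicates correlated least, at 0.839 across all genes (log2 values), against 0.946 to 0.986 in the other groups.

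The subunit genes stood lowest in MM.1S cells alone. Each gene is represented here by 1 probe set, the tested one of highest mean, and a probe set was tested where it lay above its array's median on at least 2 of the 12 arrays, which 57 of the 59 subunit genes did. The median intensity over those 57 genes was 2215 and 2134 on the MM.1S arrays after coculture, against 971 and 979 on the arrays of MM.1S alone. In MM.1R it was 2035 and 2043 after coculture, against 1577 and 1613 alone. In INA-6 it was 1661 and 1686 after coculture, against 1608 and 1517 alone. MM.1S alone had the lowest of the 6 group means for 39 of the 57 genes, as it did for 19.6% of all genes. MM.1S after coculture had the highest for 37 of the 57, but the share of all genes was not counted for the highest mean.

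**Figure D1:**
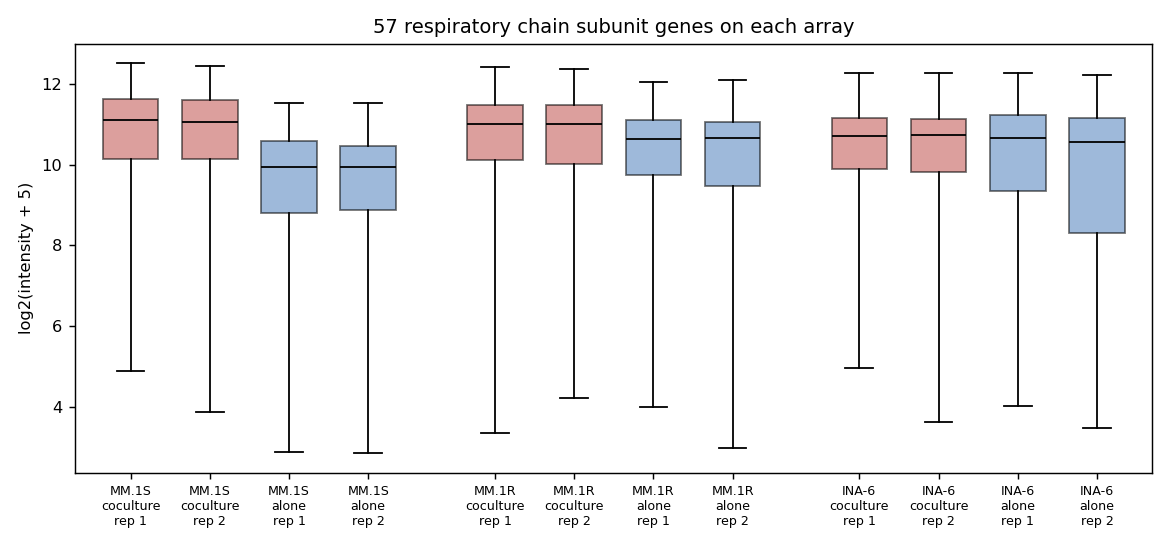
Intensity of the 57 tested subunit genes on each of the 12 arrays, as log2(intensity + 5). Boxes span the quartiles with the median as a line, and whiskers run to the lowest and highest gene. The arrays of MM.1S alone have the lowest medians (971 and 979 before the log), and those of MM.1S after coculture the highest (2215 and 2134).

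No subunit gene passed the test of an effect common to the lines. With the duplicates averaged, the lines as replicates and limma's moderated test adjusted over all probe sets, 0 of 57 were called in either direction, where 1.48% of all genes were called higher and 0.00664% lower. At an unadjusted p under 0.05, 8 of the 57 were higher and 0 lower. The share of all genes at an unadjusted p was not counted, here or below, so these counts have no background to set them against. The fitted change, coculture minus alone in log2(intensity + 5), was above 0 for 54 of the 57, with a median of 0.50 against 0.27 over all genes. It was largest for UQCRC1 (1.87 ± 0.49 SE, adjusted p = 0.126), NDUFA7 (1.61 ± 0.44, adjusted p = 0.135) and the assembly factor NDUFAF3 (1.46 ± 0.44, adjusted p = 0.162). The lowest values belonged to the divergent transcript NDUFV1-DT (-0.69), the assembly factor NDUFAF7 (-0.64) and the testis form COX6B2 (-0.16), with adjusted p of 0.432, 0.491 and 0.834. COX6B2 rested on 1 array of INA-6 alone, and without it the value was 0.41. With the 12 arrays unaveraged 22 subunit genes were called higher, and with MM.1S and MM.1R as the only lines 18 were.

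In MM.1S the subunit genes rose across all 4 complexes. In the fit of the 12 arrays 43 of the 57 (75.4%) were called higher and 0 lower after coculture, where 22.8% of all genes were called higher and 7.69% lower. The calls fell on 25 of 33 genes of complex I, 2 of 3 of complex II, 5 of 6 of complex III and 11 of 15 of complex IV. The median change was 1.12 on the log2 scale, a 2.17-fold rise, against 0.11 over all genes. By complex the median was 0.95, 1.23, 1.47 and 1.53 for I, II, III and IV, and after quantile normalization 0.49, 0.91, 1.07 and 0.97. Both coculture arrays lay above both arrays of cells alone for 55 of the 57 genes, as they did for 43.7% of all genes, and 0 were lower at an unadjusted p under 0.05. The ACTB ratio and the stromal markers differed between the same arrays, as given above.

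**Figure D2:**
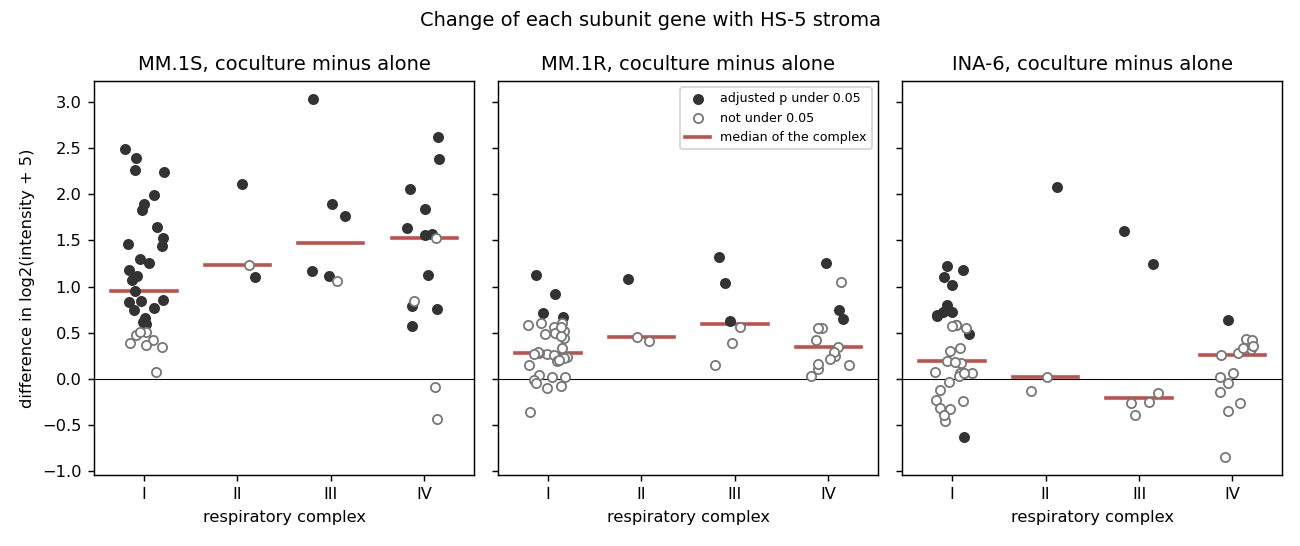
Change of each of the 57 subunit genes with HS-5 stroma (log2, coculture minus alone), by complex and line. Filled points have an adjusted p under 0.05 and the red line is the median of the complex. In MM.1S the medians lie between 0.95 and 1.53 and 43 points are filled, while 11 are filled in MM.1R, and in INA-6 15 above 0 and 1 below it.

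Among the complex III genes UQCRC1, a core protein on the matrix side, had the largest rise of all member genes in MM.1S, by the probe set used for each. Its intensity was 1847 and 1947 after coculture, against 197 and 261 alone, a change of 3.04 ± 0.20, adjusted p = 5.25e-05, or 8.2-fold. The other core protein, UQCRC2, was at 1431 and 1413 after coculture, against 691 and 667 alone in MM.1S. Its change was 1.06 ± 0.38, which did not pass the test (adjusted p = 0.0712), although all coculture values lay above those of cells alone. Other tested probe sets of UQCRC2 had changes of 0.15 and 2.95 in MM.1S, so the distance from UQCRC1 depends on the probe set. The small subunits UQCR11, UQCRQ, UQCR10 and UQCRB rose by 1.90, 1.77, 1.17 and 1.11, with adjusted p between 0.000116 and 0.00184. For UQCR11 the values were 3720.4 and 3563 after coculture, against 981 and 967 alone.

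The nuclear-coded subunits of complex IV that are used in most tissues, 11 genes, all rose in MM.1S. COX5A, a subunit on the matrix side, read 3311 and 3314 after coculture, against 516 and 550.2 alone, a rise of 2.63 ± 0.16, adjusted p = 4.71e-05. COX8A, a small membrane subunit, read 2847 and 2844 after coculture, against 552 and 534 alone, with a change of 2.38 ± 0.16, adjusted p = 6e-05. COX6B1, which faces the intermembrane space, was at 2961 and 2754 after coculture, against 688 and 671 alone (2.06 ± 0.16, adjusted p = 9.37e-05). These 3 genes had no overlap between the conditions. COX6A1 gave 5798 and 5494 after coculture, against 1710.0 and 1439 alone, and rose by 1.84. COX7C, COX6C, COX5B and COX4I1 rose by 1.63, 1.57, 1.56 and 1.12. Of the called changes in the complex the lowest were those of COX7B at 0.79, the supercomplex factor COX7A2L at 0.76 and COX7A2 at 0.57. COX7A2 read 4272 and 4455 after coculture, against 2923 and 2938 alone, and after quantile normalization its change was -0.37. Without any 1 of the arrays outside INA-6 alone, and with no filter, the COX7A2 call was lost.

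In complex I the accessory subunits had both the largest and the smallest changes in MM.1S. NDUFA7 read 1938 and 2078 after coculture, against 342 and 365 alone (2.49 ± 0.30, adjusted p = 0.000543). NDUFA13, also known as GRIM-19, read 1432 and 1437 after coculture, against 259 and 279.9 alone (2.39 ± 0.17, adjusted p = 6.54e-05). NDUFB7, NDUFB9 and NDUFA8 rose by 2.26, 2.24 and 1.99. At the other end NDUFB1, a small subunit of the membrane arm, read 1965 and 1938 after coculture, against 1845 and 1874 alone, a change of 0.07 ± 0.18, adjusted p = 0.818. The 8 complex I genes that were not called higher, NDUFA6, NDUFA10, NDUFB1, NDUFB3, NDUFB10, NDUFS1, NDUFS3 and NDUFS6, had changes between 0.07 and 0.51. Other tested probe sets of these genes spread more widely. They had 2.74 for NDUFB10, 1.33 for NDUFA6, 0.34 to 1.42 for NDUFS1, -0.38 to -0.26 for NDUFA10 and -1.51 for NDUFB1.

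The core subunits of complex I, which hold the flavin and the iron-sulphur clusters that carry electrons from NADH, differed among themselves. NDUFV2, an iron-sulphur subunit, read 5376 and 5113 after coculture, against 1927 and 1867 alone, and rose by 1.46 ± 0.17 (adjusted p = 0.000444). NDUFS7, the subunit next to the ubiquinone site, read 1923 and 1919 after coculture, against 659 and 664 alone, and rose by 1.53 ± 0.16 (adjusted p = 0.000267). Both more than doubled, while NDUFV1, which binds NADH and the flavin, read 2702 and 2704 after coculture, against 1737 and 1674 alone, and rose by 0.66 ± 0.18 (adjusted p = 0.0225). The NDUFV1 call was lost without any 1 of the MM.1S arrays and with no filter, and after quantile normalization its change was 0.12. NDUFS1, the large iron-sulphur subunit, was at 589.5 and 575 after coculture, against 462 and 408 alone, with a change of 0.42 ± 0.31, adjusted p = 0.37. NDUFS3 was at 1111 and 1128 after coculture, against 860.1 and 872 alone (0.37 ± 0.16, adjusted p = 0.132). The last 2 genes had no overlap between conditions but did not pass the test.

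Complex II, the only complex without a mitochondrially coded subunit, had its 3 measured genes up in MM.1S with 2 called. SDHC, a membrane anchor, read 567 and 528 after coculture, against 114 and 132 alone (2.11 ± 0.19, adjusted p = 0.000138). SDHD, the other anchor, read 1034 and 1076 after coculture, against 473 and 501 alone (1.11 ± 0.19, adjusted p = 0.00292). SDHA, the flavoprotein that oxidizes succinate, read 2317 and 2285 after coculture, against 971 and 979 alone, and its change of 1.23 ± 0.43 missed the threshold (adjusted p = 0.0614). The standard error of SDHA was widened by the duplicates of INA-6 alone, since the 6 groups share 1 estimate of the spread, and without either of those arrays the same change had an adjusted p of 0.000104.

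**Figure D3:**
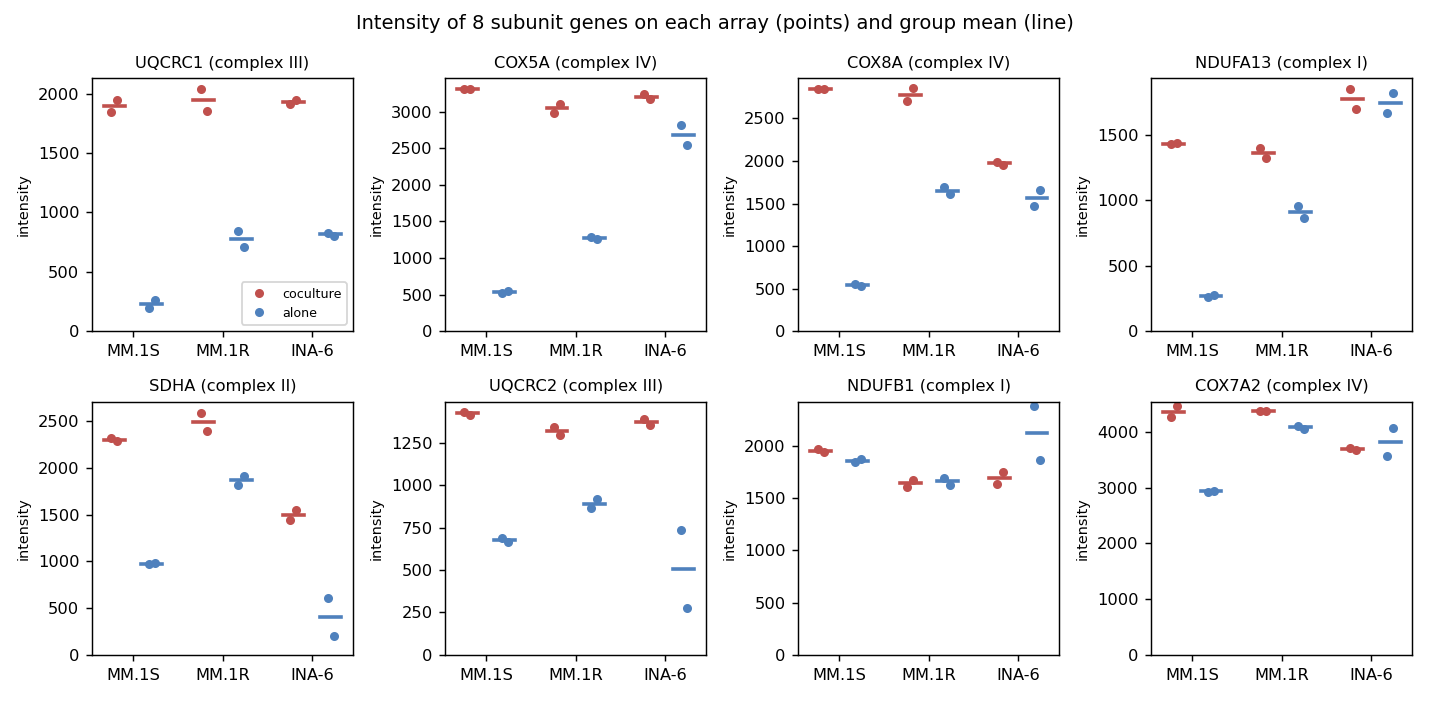
Intensity of 8 subunit genes on each array, on linear axes from 0. Points are arrays, lines are group means, red is coculture and blue is alone. UQCRC1, COX5A, COX8A and NDUFA13 are lowest in MM.1S alone, SDHA and UQCRC2 are lowest in INA-6 alone, both conditions of NDUFB1 lie close together in MM.1S, and COX7A2 stays between 2923 and 4455.

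Since so many of these genes moved together in MM.1S, their promoters were searched for letters known to be frequent in respiratory genes. Promoter sequences from RefSeq (GRCh38.p14), 250 bases before to 50 after the gene start, were matched by symbol for 50 of the 57 genes. The NRF1 core, GCGCA and GCGC with any 1 base between them, read on both strands, was present in 22% of the 50, against 6.28% of all 27305 promoters of the same length. The core of ETS factors such as GABP, CCGGAAG, was in 26% against 10.7%, and the YY1 core AAGATGGCG in 12% against 1.85%. The hypoxia element core ACGTG was in 26% against 21.6%. These are matches of letters and not shown to be bound sites. The median change in MM.1S was 1.84 for the 13 genes with the ETS letters and 0.95 for the 37 without. For genes with and without the other letters it was 1.23 and 1.06 (NRF1), 1.24 and 1.12 (YY1) and 1.26 and 1.11 (hypoxia). These splits were looked at after the values were seen and are given without a test. COX5A, which rose by 2.63, had only the hypoxia letters. NDUFA7, which rose by 2.49, had the YY1 and hypoxia letters. Below are the 150 bases before the start of 3 genes with large changes and of NDUFB1, the complex I gene that changed least. Each is read 5′ to 3′ on the gene's strand with the matched letters in capitals.
UQCRC1, chr3:48609647-48609796, minus strand, NRF1 core, as it reads from the other strand, in capitals: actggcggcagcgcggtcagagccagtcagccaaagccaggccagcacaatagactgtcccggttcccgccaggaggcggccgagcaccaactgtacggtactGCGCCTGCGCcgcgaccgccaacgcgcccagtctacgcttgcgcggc
COX8A, chr11:63974470-63974619, plus strand, ETS core, as it reads from the other strand, in capitals: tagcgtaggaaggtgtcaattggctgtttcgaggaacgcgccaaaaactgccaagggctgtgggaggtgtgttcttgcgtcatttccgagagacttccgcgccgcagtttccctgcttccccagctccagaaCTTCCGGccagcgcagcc
NDUFA13, chr19:19516075-19516224, plus strand, ETS core in capitals: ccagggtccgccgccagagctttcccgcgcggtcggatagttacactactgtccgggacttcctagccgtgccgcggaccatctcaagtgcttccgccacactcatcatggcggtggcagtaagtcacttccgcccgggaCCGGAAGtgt
NDUFB1, chr14:92121707-92121856, minus strand, with none of the 4 motifs: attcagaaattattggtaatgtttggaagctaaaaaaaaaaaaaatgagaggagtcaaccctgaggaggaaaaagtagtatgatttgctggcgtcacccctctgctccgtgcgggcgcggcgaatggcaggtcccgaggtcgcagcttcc

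In MM.1R the changes were mostly in the same direction and smaller, and most did not pass the test. After coculture 11 of the 57 subunit genes (19.3%) were called higher and 0 lower, where 12% of all genes were called higher and 2.13% lower. They were 4 of complex I, 1 of complex II, 3 of complex III and 3 of complex IV. The median change was 0.38, against 0.09 over all genes, and by complex it was 0.28, 0.46, 0.60 and 0.35 for I to IV. Both coculture arrays lay above both arrays of cells alone for 46 of the 57 genes, as for 41.4% of all genes. At an unadjusted p under 0.05, 23 were higher and 1 lower, with no share of all genes counted. The count depended on the fit: it was 29 without either array of INA-6 alone, 26 when INA-6 was left out, 6 after quantile normalization, 3 without MM.1R alone replicate 2 or MM.1R coculture replicate 1, 4 without either other array of MM.1R, and 6 without a coculture array of MM.1S or INA-6.

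By the probe set used for each gene, UQCRC1 again had the largest rise in MM.1R, at 2035 and 1853 after coculture, against 847 and 708 alone (1.32 ± 0.20, adjusted p = 0.00353). COX5A read 2985 and 3103 after coculture, against 1289.5 and 1253 alone (1.26 ± 0.16, adjusted p = 0.00178). NDUFA7 read 1960.0 and 2009.9 after coculture, against 920.1 and 899.6 alone (1.12 ± 0.30, adjusted p = 0.0425), and its call was lost without any single array other than those of INA-6 alone, and also with a pseudocount of 1, after centring, with no filter and with the replicate block. In each of these genes both coculture arrays lay far above both arrays of cells alone. SDHC read 539 and 528 after coculture, against 266 and 235 alone, and rose by 1.08, COX8A read 2704 and 2854 after coculture, against 1693 and 1613 alone, and rose by 0.75, and NDUFV2 read 4998 and 4933 after coculture, against 3062 and 3011 alone, and rose by 0.71. The calls of COX8A and NDUFV2 were lost without any 1 of the MM.1R arrays, after quantile normalization and after centring, and that of SDHC without MM.1R alone replicate 2 or MM.1R coculture replicate 1. The NDUFV2 call was also lost with no filter and without any 1 of the coculture arrays of MM.1S and INA-6. The remaining calls were UQCR11 at 1.04, NDUFB9 at 0.91, NDUFA1 at 0.67, COX5B at 0.65 and UQCRQ at 0.63.

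Other core genes were not called in MM.1R. NDUFS7 read 1807 and 1795 after coculture, against 1189 and 1254 alone (0.56 ± 0.16, adjusted p = 0.0511), NDUFV1 2713 and 2400.3 after coculture, against 2212 and 2029 alone (0.27), and NDUFS1 483 and 500.5 after coculture, against 414 and 439.6 alone (0.20). NDUFS3 was at 1014 and 998 after coculture, against 1009.9 and 1062 alone, with overlap between the conditions. SDHA read 2584 and 2397 after coculture, against 1820.3 and 1913 alone (0.41 ± 0.43, adjusted p = 0.647), SDHD 1021 and 907 after coculture, against 712 and 689 alone (0.46), and UQCRC2 1341 and 1296 after coculture, against 864 and 917 alone (0.56). Other tested probe sets of UQCRC2 had changes of -0.77, called lower, and 1.27 in MM.1R, so its direction there depends on the probe set. Both MM.1R conditions were close in NDUFB1, at 1609.9 and 1673 after coculture, against 1692 and 1628 alone. NDUFS6, an accessory subunit that binds zinc, had the lowest change of the subunits, -0.36 ± 0.16, adjusted p = 0.19, with 3081 and 3092 after coculture, against 3920.1 and 4022 alone.

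In INA-6 the subunit genes were split, and the share called higher was below that of all genes. After coculture 15 of the 57 (26.3%) were called higher and 1 lower, where 38.2% of all genes were called higher and 12.5% lower. The median change was 0.18 against 0.47 over all genes. The calls were 11 higher and 1 lower in complex I, 1 higher in complex II, 2 higher in complex III and 1 higher in complex IV. By complex the median was 0.19, 0.013, -0.21 and 0.26 for I to IV, and quantile normalization turned the sign for II (-0.13) and III (0.0042). Over all tested member probe sets, in place of 1 for each gene, the complex II median in INA-6 was 1.07. Without a single array the count of genes called higher lay between 8 (without either INA-6 coculture array) and 23 (without INA-6 alone replicate 1), and that called lower between 0 and 6 (without INA-6 alone replicate 2).

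SDHA had the largest rise in INA-6 by the probe set used for each gene, at 1446 and 1546 after coculture, against 612 and 199 alone (2.08 ± 0.43, adjusted p = 0.00435). UQCRC2 followed, at 1390.1 and 1357 after coculture, against 736 and 275 alone (1.60 ± 0.38, adjusted p = 0.00908). In both genes the second array of INA-6 alone was far below the first, and without that array the changes were 1.28 and 0.89, while without the first they were 2.88 and 2.30. UQCRC1 had tight duplicates, at 1912 and 1946 after coculture, against 828 and 800.0 alone (1.24 ± 0.20, adjusted p = 0.00126). NDUFA7 and NDUFB7 rose by 1.22 and 1.17. The accessory subunits NDUFV3, NDUFS4 and NDUFA9 rose by 1.10, 1.02 and 0.80.

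Of the core complex I genes, NDUFV1 was at 1843 and 1928 after coculture, against 1049 and 1234 alone in INA-6 (0.73 ± 0.18, adjusted p = 0.00957), and NDUFS7 at 1082 and 1056 after coculture, against 652 and 672 alone (0.69 ± 0.16, adjusted p = 0.00742). Both rose (NDUFV1 was not called without INA-6 coculture replicate 2, nor NDUFS7 after quantile normalization, with an adjusted p of 0.0718), while NDUFV2, at 1762 and 1686 after coculture, against 1797 and 1517 alone, had a change of 0.062. NDUFS1 was at 447 and 466 after coculture, against 446 and 209.6 alone, and NDUFS3 at 951 and 899 after coculture, against 927 and 827 alone, neither called. By the probe sets used here the membrane anchors of complex II were not called: SDHC was at 353 and 339 after coculture, against 378 and 310.2 alone, and SDHD at 1297 and 1246 after coculture, against 1589 and 1224 alone, with changes of 0.013 and -0.13. SDHC had 7 tested probe sets, with changes in INA-6 between -0.66 and 2.33, and 4 of the others were called higher, so that its direction there depends on the probe set. NDUFB6, of the membrane arm of complex I, was the only subunit gene called lower in INA-6 by the probe set used for each. It read 1507 and 1771 after coculture, against 2219 and 2900.4 alone (-0.63 ± 0.20, adjusted p = 0.0298), and its other tested probe set had a change of 0.33. Over all 101 tested subunit probe sets 24 were called higher in INA-6 and 7 lower, 3 of the 7 in complex III. Other probe sets of UQCRB and UQCR11 had changes there as low as -2.32 and -2.18.

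Among the complex IV genes only COX6A1 was called in INA-6, at 3923 and 4056 after coculture, against 2891 and 2264 alone (0.64 ± 0.19, adjusted p = 0.0238), and not without either INA-6 coculture array or after centring. COX5A was at 3238 and 3176 after coculture, against 2819.9 and 2541 alone, and COX8A at 1991 and 1957 after coculture, against 1471 and 1656 alone, with changes of 0.26 and 0.34 that were not called. COX6B1 was at 2207 and 2227 after coculture, against 1762 and 1890.0 alone (0.28). For these 3 genes the values of cells alone were already near those after coculture. COX4I1, at 3379 and 3304 after coculture, against 3015 and 3584 alone, and COX7A2, at 3717 and 3670.1 after coculture, against 3557 and 4065 alone, overlapped between conditions. NDUFB1, at 1639.7 and 1745 after coculture, against 2379.6 and 1859.8 alone, had a change of -0.31, and NDUFA13, at 1854 and 1703 after coculture, against 1672 and 1821 alone, of 0.026.

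The effect of coculture differed between the lines for 33 of the 57 subunit genes (57.9%) by the F-test over the lines, where 33.3% of all genes did. The count was 21 without either array of MM.1S after coculture. The 33 were 17 of 33 genes of complex I, 2 of 3 of complex II, 5 of 6 of complex III and 9 of 15 of complex IV. INA-6 had a lower effect than MM.1S and MM.1R averaged for 26 of the 57 and a higher one for 0, where 13.4% of all genes were called lower and 24.1% higher. The median of this difference was -0.59, against 0.18 over all genes, and at an unadjusted p under 0.05 2 genes had a higher effect in INA-6. After quantile normalization the counts were 16 lower and 5 higher, without INA-6 coculture replicate 1 or 2 they were 16 or 17 lower, and without INA-6 alone replicate 1 or 2 they were 8 or 4 higher. MM.1R had a lower effect than MM.1S for 3 of the 57 (0.266% of all genes were called lower) and a higher one for 0 (0.0864%), with a median difference of -0.76 against 0.0080 over all genes. At an unadjusted p under 0.05 it was lower for 35 and higher for 0, with no share of all genes counted. The count of 3 was 37 without either array of INA-6 alone and 0 without any other single array.

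The smallest p in the F-test belonged to NDUFA13, COX5A and UQCR11. NDUFA13 changed by 0.026 in INA-6 and 0.58 in MM.1R, against 2.39 in MM.1S (adjusted p of the F-test = 0.000582). In COX5A the changes were 0.26 in INA-6 and 1.26 in MM.1R, against 2.63 in MM.1S (adjusted p = 0.000586). UQCR11 had -0.39 in INA-6 and 1.04 in MM.1R, against 1.90 in MM.1S (adjusted p = 0.000604). UQCR11 in INA-6 read 1906 and 1889 after coculture, against 2526 and 2464 alone, below cells alone on both arrays, though this was not called (adjusted p = 0.0732). In MM.1R it read 3597 and 3884 after coculture, against 1777 and 1846 alone. The other tested probe set of UQCR11 did not rise in this way, with changes of -2.18 in INA-6, -0.46 in MM.1R and 0.025 in MM.1S. Across the 57 genes the changes in MM.1R and MM.1S had a Pearson r of 0.69 (0.77 over all 15052 genes), and those in INA-6 and MM.1S an r of 0.18 (0.39 over all). The changes of each line come from its own arrays, and the correlations are given as a description.

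**Figure D4:**
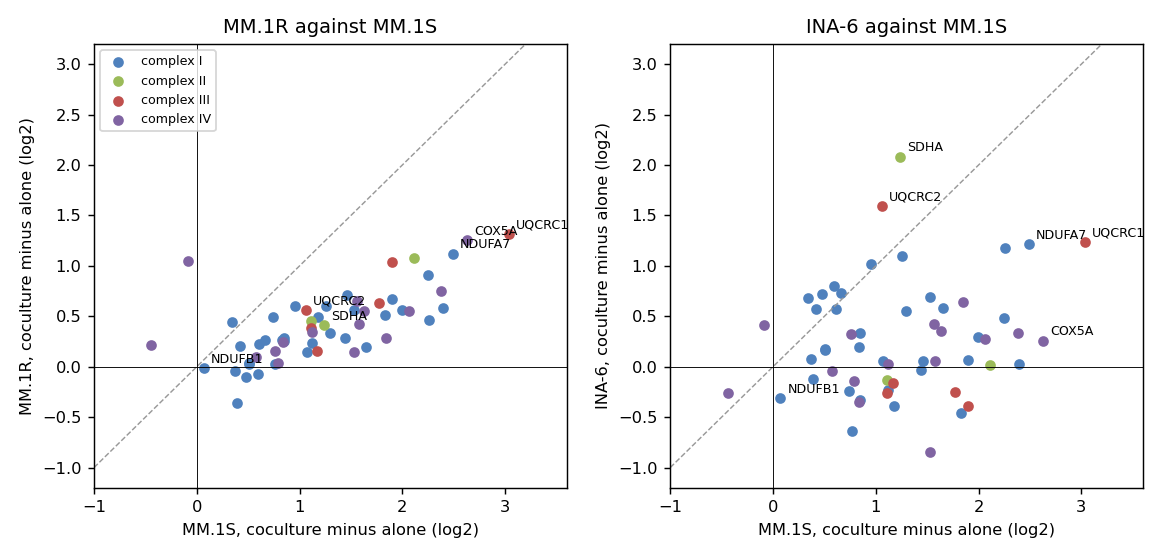
Change of each of the 57 subunit genes with stroma in MM.1R (left) and INA-6 (right) against the change in MM.1S, in log2, coloured by complex. The dashed line marks equal change. Nearly all points lie below it on the left (54 of 57 have a smaller change in MM.1R). On the right SDHA and UQCRC2 stand above it, as do some other genes, NDUFA10 and COX6A2 among them.

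The lines differed in the subunit genes when kept alone. MM.1R alone was called higher than MM.1S alone for 24 of the 57 (42.1%) and lower for 0, where 6.3% of all genes were called higher and 1.14% lower. The median difference was 0.66 against 0.0092 over all genes. At an unadjusted p under 0.05 MM.1R was higher for 38 and lower for 0, with no share of all genes counted. This comparison shares the arrays of cells alone with the coculture effects above, so a low level in MM.1S alone enters both. Its largest members were UQCRC1, with 847 and 708 in MM.1R alone against 197 and 261 in MM.1S alone (1.75 ± 0.20, adjusted p = 0.00519), NDUFA13, with 960.1 and 864 against 259 and 279.9 (1.74 ± 0.17, adjusted p = 0.00482), and NDUFB7, with 342 and 322 against 91.6 and 118 (1.63 ± 0.24, adjusted p = 0.00896). The count was 0 without MM.1R alone replicate 1, 3 without MM.1R alone replicate 2, 8 without MM.1S alone replicate 1, 13 without MM.1S alone replicate 2, 15 without either MM.1S coculture array and 42 without either array of INA-6 alone.

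INA-6 alone, set against the mean of both other lines alone, was called higher for 21 of the 57 and lower for 8, where 20.7% of all genes were called higher and 33.5% lower. Complex IV held 8 of the higher genes and 0 of the lower ones, and complex I had 7 of each. NDUFA13 stood out among the higher genes (1.80 ± 0.15, adjusted p = 2.13e-05), with 1672 and 1821 in INA-6 alone, and COX7A1 had 67.1 and 13.7 (1.94 ± 0.67, adjusted p = 0.039) and its call was lost without INA-6 alone replicate 1, where the difference was 0.96, without either array of MM.1S alone or MM.1R alone replicate 2, and after quantile normalization. Among the lower genes were SDHA (-1.93 ± 0.37, adjusted p = 0.00256) and NDUFA9, at 213 and 190.4 in INA-6 alone, 666 and 691 in MM.1R alone and 491 and 518 in MM.1S alone (-1.51 ± 0.15, adjusted p = 5.48e-05). The lower count was 19 after quantile normalization and 17 without INA-6 alone replicate 1.

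After coculture no subunit gene was called between MM.1R and MM.1S. In this comparison, added after the values were seen, limma called 0 of 57 higher and 0 lower, where 0% of all genes were called in either direction, and at an unadjusted p under 0.05 it was 0 as well. The median difference was -0.10 against 0.022 over all genes. UQCRC1 was at 2035 and 1853 in MM.1R after coculture against 1847 and 1947 in MM.1S after coculture. INA-6 after coculture was called higher than the mean of both other lines for 2 of the 57, UQCRB and COX6C, and lower for 18, where 8.94% of all genes were called higher and 12.3% lower. Of the 18, 13 were in complex I, led by NDUFV2, with 1762 and 1686 in INA-6, 4998 and 4933 in MM.1R and 5376 and 5113 in MM.1S (-1.56 ± 0.15, adjusted p = 0.00021). The count of 18 was 32 without either array of INA-6 alone and 5 to 11 without any 1 of the coculture arrays, and that of 2 was 5 without either array of INA-6 alone and 0 or 1 without any other.

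Complex IV has pairs of subunit forms, of which one is used in most tissues and the other in muscle, lung or testis. The special forms read low on most arrays, where the array medians lay between 19.8 and 24.1, and the general forms far above the medians on every array. COX4I2, the lung form that responds to low oxygen in other cells, was at 36.6 and 24.4 against 10.02 and 20.5 for MM.1S, 27.6 and 36.0 against 16.0 and 40.5 for MM.1R and 43.4 and 27.9 against 65.6 and 31.7 for INA-6 (coculture against alone), a range of low values that overlapped in MM.1R and INA-6. COX6A2, the muscle form, was at 24.6 and 14.3 against 9.56 and 39.4 for MM.1S, 28.4 and 44.3 against 11.1 and 19.0 for MM.1R and 26.4 and 23.7 against 40.0 and 6.25 for INA-6. COX6B2, a testis form, was at 32.1 and 35.3 against 37.5 and 59.8 for MM.1S, 35.5 and 27.6 against 29.8 and 23.1 for MM.1R and 33.8 and 47.4 against 11.4 and 172 for INA-6, where the 2 arrays of INA-6 alone lay farther apart than any groups did. Its change in INA-6 was -1.98 without the first of these arrays and 1.46 without the second, each called. COX7A1, the muscle form, was at 25.4 and 9.75 against 2.37 and 2.27 for MM.1S, 5.19 and 13.8 against 14.6 and 2.98 for MM.1R and 28.4 and 7.43 against 67.1 and 13.7 for INA-6. None of the 4 changes with coculture was called in any line with all arrays. The testis forms COX7B2 and COX8C did not pass the filter, with values of 1.68 to 23.7 and 1.97 to 19.1 over the 12 arrays.

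The general partners in MM.1R and MM.1S were as follows. COX4I1 read 2792 and 2704 against 2196 and 2128 in MM.1R and 2979 and 2983 against 1335 and 1404 in MM.1S (coculture against alone). COX6A1 read 5291 and 5226 against 4214 and 4398 in MM.1R, with a change of 0.29, where MM.1S had 1.84. COX6B1 read 2854 and 2656 against 1874 and 1882 in MM.1R (0.55 ± 0.16, adjusted p = 0.0595). COX7A2 gave 4372 and 4373 against 4096 and 4058 in MM.1R, and COX7B gave 4013 and 4124 against 2349 and 2361 for MM.1S, 3229 and 3303 against 3167 and 3218 for MM.1R and 3039 and 3040.0 against 3318 and 3399 for INA-6. COX7B was called in MM.1S and in neither other line, and its difference between the lines passed the F-test (adjusted p = 0.0249). After quantile normalization its change in MM.1S was 0.022 and not called. NDUFA4, a complex IV subunit despite its name, is annotated as COXFA4 and so lay outside the name rule, with 3139 and 3147 against 951 and 1066 for MM.1S, 2721 and 2805 against 1723 and 1921 for MM.1R and 1745 and 1820.3 against 2726 and 2071 for INA-6. It rose in MM.1S by 1.64 ± 0.19 (adjusted p = 0.000483).

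The complex I assembly factors, which build the complex and are not part of it, moved apart from each other. In MM.1S 4 of the 8 were called higher and 0 lower, in MM.1R 1 higher and 0 lower, and in INA-6 3 higher and 3 lower. Of all genes 22.8%, 12% and 38.2% were called higher in MM.1S, MM.1R and INA-6, and 7.69%, 2.13% and 12.5% lower, so that the higher calls in MM.1R and INA-6 were near the shares of all genes. NDUFAF3, which acts early in assembly, read 1168 and 1076 against 222 and 211 for MM.1S, 1145 and 1205 against 564 and 559 for MM.1R and 1004 and 1021 against 670.4 and 399 for INA-6 (coculture against alone) and rose in all 3 lines, by 2.35, 1.06 and 0.96. NDUFAF1, a factor of the membrane arm, read 562 and 566 against 283 and 285 for MM.1S, 505 and 466 against 444 and 439.7 for MM.1R and 666 and 671 against 305 and 245 for INA-6, rising by 1.28 in INA-6 (adjusted p = 0.000589) and by 0.98 in MM.1S. NDUFAF4, the partner of NDUFAF3, went in opposite directions, with 530.1 and 518 against 166 and 223 for MM.1S, 561 and 540.0 against 359 and 343 for MM.1R and 243 and 217 against 465 and 662 for INA-6. It rose by 1.42 in MM.1S and fell in INA-6 (-1.26 ± 0.23, adjusted p = 0.00245), but its other tested probe set was called the opposite way, at -0.83 in MM.1S, -1.21 in MM.1R and 1.12 in INA-6.

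Falls in INA-6 were also seen in NDUFAF7 and NDUFAF2. NDUFAF7, a mitochondrial methyltransferase, read 201 and 193 against 211 and 226 for MM.1S, 203 and 166 against 204 and 152 for MM.1R and 149 and 207 against 531 and 759 for INA-6 (-1.83 ± 0.26, adjusted p = 0.000737 in INA-6), and another of its probe sets was called higher there, at 2.74. NDUFAF2, an assembly factor related to the subunit NDUFA12, was at 492 and 524 after coculture, against 1307 and 1117 alone in INA-6 (-1.24 ± 0.18, adjusted p = 0.000785) and showed the largest excess of INA-6 alone over the mean of both other lines alone (2.12 ± 0.16, adjusted p = 1.3e-05). Of the transcripts that are no subunits, the divergent transcript NDUFV1-DT read 57.6 and 41.5 after coculture, against 136 and 205 alone in INA-6 (-1.67 ± 0.46, adjusted p = 0.0165). Its call was lost without INA-6 alone replicate 2 (adjusted p = 0.082) and without INA-6 coculture replicate 2 (adjusted p = 0.0975). NDUFV1-DT was at 35.8 and 51.6 against 42.0 and 59.6 in MM.1R and 45.2 and 43.6 against 87.5 and 29.2 in MM.1S, with overlap. NDUFV2-AS1, antisense to NDUFV2, was lower in INA-6 alone, at 5.63 and 12.7, than in MM.1R alone, at 125 and 106, or MM.1S alone, at 30.6 and 89.1 (-2.61 ± 0.39, adjusted p = 0.00067).

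Several genes had more than 1 tested probe set, and these did not always move alike. Over all 117 tested member probe sets, 68 were called higher and 2 lower in MM.1S (20.4% and 8.98% of all probe sets), 21 and 2 in MM.1R (10.5% and 3.48%), and 29 and 11 in INA-6 (35.2% and 12.5%). Of the 30 member genes with several tested probe sets, 22 were called in MM.1S by the probe set used here, and for 8 of the 22 another probe set had the opposite sign, called in 1 case. The other probe set of NDUFB1 was called lower in MM.1S, at -1.51. For COX5A the other probe set had a change of -2.29 in INA-6, called lower, and for NDUFA7 one of -0.32 in MM.1S, not called. Some probe sets not used here rose more than that of UQCRC1. They belonged to NDUFA11 (3.22) and NDUFB8 (3.21) in MM.1S, and to SDHC (1.86), COX7C (1.48) and NDUFA11 (1.38) in MM.1R. In MM.1R 3 of 5 called genes had another probe set of opposite sign, and in INA-6 6 of 12.

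Other genes of oxidative metabolism, taken from lists, showed where the change in MM.1S reached. Of 17 tested ATP synthase genes 15 were called higher in MM.1S, 5 in MM.1R and 2 in INA-6, with 0 lower in each line and medians of 0.99, 0.27 and -0.063. Of 15 citric acid cycle and pyruvate dehydrogenase genes 11 were called higher in MM.1S, 1 in MM.1R and 8 in INA-6, with 1 lower in INA-6. Of 34 assembly factors of complexes II to IV, 13 were called higher and 1 lower in MM.1S, 3 higher in MM.1R and 18 higher in INA-6. Among 9 hypoxia genes that act on mitochondria 4 were called higher in MM.1S, 2 in MM.1R, and 5 higher and 1 lower in INA-6. Outside oxidative metabolism, 9 of the 11 plasma cell markers were called higher in MM.1S and 3 in MM.1R. In INA-6 3 of these markers were called higher and 4 lower. Their median changes were 0.90, 0.51 and -0.39 in MM.1S, MM.1R and INA-6. These counts stand beside 22.8%, 12% and 38.2% of all genes called higher in MM.1S, MM.1R and INA-6, and 7.69%, 2.13% and 12.5% called lower. The median changes over all genes were 0.11, 0.093 and 0.47. CYC1, the cytochrome c1 subunit of complex III, which lay outside the name rule, and CYCS, cytochrome c itself, rose in MM.1S, by 0.84 and 0.74, and CYCS fell in INA-6 (-0.89 ± 0.17, adjusted p = 0.00339).

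The subunits coded in mitochondrial DNA, of which 7 of 13 could be tested, gave few calls. Of 7 tested, 1 was called higher and 1 lower in MM.1S, 0 higher and 1 lower in MM.1R, and 0 higher and 3 lower in INA-6 (7.69%, 2.13% and 12.5% of all genes were called lower), with medians of 0.072, -0.039 and -0.38. COX1, the catalytic subunit of complex IV, read 10660.4 and 10985 after coculture, against 7653 and 7295 alone in MM.1S and rose by 0.53 ± 0.16 (adjusted p = 0.0393). ND6, a complex I subunit coded on the opposite strand from the others, fell in all 3 lines and read 740.2 and 862 against 2701 and 2831 for MM.1S, 781 and 966 against 1377 and 1480.2 for MM.1R and 1249 and 1301 against 7037 and 7671 for INA-6 (coculture against alone). This gene alone made up the lower calls in MM.1S and MM.1R, and it was 1 of the 3 in INA-6. The 12 regulators of mitochondrial biogenesis gave 3 calls higher and 1 lower in MM.1S, 2 and 1 in MM.1R, and 6 and 1 in INA-6, where the shares of all genes called higher were 22.8%, 12% and 38.2%. TFAM, which packs mitochondrial DNA and starts its transcription, was the gene that fell, with 335 and 384 against 720.4 and 781 for MM.1S, 278 and 259 against 689 and 617 for MM.1R and 472 and 454 against 3183 and 3321 for INA-6 and changes of -1.05, -1.27 and -2.80. These list genes were picked after their values were seen. PPARGC1A, a coactivator of respiratory genes, read 177 and 150.3 against 37.9 and 48.2 for MM.1S, 193 and 153 against 77.6 and 64.4 for MM.1R and 34.9 and 30.4 against 27.2 and 54.4 for INA-6, rising by 1.82 in MM.1S and 1.23 in MM.1R, with -0.22 in INA-6.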

How the data were processed

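Total RNA from 12 samples was hybridised to Affymetrix U133 Plus 2.0 arrays. The authors deposited 1 linear intensity per probe set and array. The submitters' processing notes name MAS5 and the design text names dChip, and which was used for these values is not settled here. Further normalization is not given in the sources used here. Array medians lay between 19.8 and 24.1, and the number of arrays limits the precision.

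Values were taken to log2(intensity + 5). Of 54675 probe sets, 35664 lay above the array median on at least 2 of 12 arrays and were tested, for 15052 genes. The platform annotation gave 41097 probe sets 1 gene symbol, 1801 several and 11776 none. Tests used limma 3.58.1 in R 4.3.3, with Benjamini-Hochberg adjustment over all tested probe sets and a threshold of 0.05. The common effect used 6 averaged values with the line as a block. The effects within and between lines used group means over 12 arrays (6 residual degrees of freedom).

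The members and gene lists were chosen with earlier results of these data known. Values on every array are given for succinate dehydrogenase genes, core complex I genes, UQCRC1 and UQCRC2, pairs of tissue forms, the 3 largest rises and falls per comparison and the 3 smallest p of the F-test. Other members with such values (COX6C, NDUFB1, NDUFB6, NDUFS6, UQCRB and UQCR11 in MM.1S among them), the named list genes and the comparisons between lines after coculture were added after values were seen. Promoters came from RefSeq (GRCh38.p14). Alternatives were another pseudocount, quantile normalization, centring, no filter, 1 probe set per gene, the replicate number as a block, INA-6 left out and each array left out. Correlated arrays, in which duplicates share 1 RNA source, make p-values within a line smaller than those of independent cultures would be.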

Additional observations from a re-analysis of the deposited data

Results flagged for a closer look

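The coculture effect differed between the lines for 33 of the 57 subunit genes by limma's F-test, and by the same test for single genes that the text describes. In complex I these were NDUFA13 (adjusted p = 0.000582), NDUFV2 (0.00745), NDUFB7 (0.0109), NDUFS7 (0.0194) and NDUFA9 (0.0466). In complex II they were SDHC (0.0018) and SDHD (0.0209), and in complex III UQCR11 (0.000604) and UQCRC1 (0.00287). In complex IV they were COX5A (0.000586), COX8A (0.000888), COX6B1 (0.00145), COX6A1 (0.00652), COX4I1 (0.0199) and COX7B (0.0249). The assembly factors were NDUFAF4 (0.00134), NDUFAF2 (0.00253), NDUFAF7 (0.00951), NDUFAF1 (0.019) and NDUFAF3 (0.0243). The 3′ to 5′ ratio of ACTB also ran in opposite orders, with 32.0 ± 0.531 after coculture and 5.51 ± 0.291 alone in INA-6 but 5.10 ± 0.191 after coculture and 22.4 ± 0.456 alone in MM.1S (SD, n = 2 each), and its part in these differences was not tested.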

How the results depend on the processing

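The rise in MM.1S held under all alternatives by its count: 0 subunit genes were called lower under any of them, and between 29 and 51 were called higher without 1 array. The counts in MM.1R, and those comparing MM.1R with MM.1S, depended on the spread estimate that all groups share, to which the duplicates of INA-6 alone add most. COX7B2 and COX8C lay too low on the arrays to pass the filter. The cause of the other shifts was not tested.

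Quantile normalization lowered the median change of the subunits to 0.79 in MM.1S and 0.12 in MM.1R, and gave 6 subunit genes higher and 1 lower, and 13 probe sets higher and 4 lower, in MM.1R. In INA-6 it gave 17 probe sets lower. It turned the sign in MM.1S for COX7A2 (-0.37), in MM.1R for the complex I median (-0.033), NDUFV1 (-0.033), NDUFS1 (-0.0043), COX6A1 (-0.067), COX7A2 (-0.22) and COX7B (-0.25), and in INA-6 for the complex II median (-0.13), the complex III median (0.0042), SDHC (-0.62), NDUFS1 (-0.063), NDUFS3 (-0.12), COX7A2 (0.24) and COX7B (0.13). With it 19 subunit genes were lower in INA-6 alone than the mean of both other lines alone, the effect in INA-6 was higher for 5 and lower for 16, and the effect in MM.1R was lower than in MM.1S for 10. Centring each array gave a median of 1.19 and 1 probe set lower in MM.1S, and in MM.1R a median of 0.35, 5 subunit genes higher and 12 probe sets higher against 1 lower. It left 0 genes with a lower effect in MM.1R than in MM.1S and 0 higher in INA-6 after coculture than the mean of both other lines.

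A pseudocount of 1 gave 1 probe set lower in MM.1S, 0 genes with a lower effect in MM.1R and 1 higher in INA-6 after coculture, and a pseudocount of 20 gave 3 lower in INA-6 and 17 with a lower effect in MM.1R. With no filter 6 subunit genes were higher and 1 probe set lower in MM.1R, 1 probe set was lower in MM.1S, 0 genes were lower in INA-6, 0 had a lower effect in MM.1R, and INA-6 after coculture was higher for 0 and lower for 11. With 1 probe set per gene 3 were lower in INA-6, the effect in INA-6 was higher for 1 and that in MM.1R lower for 15. Over all member probe sets the medians were 1.06 in MM.1S and 0.35 in MM.1R. With the arrays not averaged 22 genes were higher in the common effect. Without INA-6 there were 18, and in MM.1R 26 higher and 1 lower, with 42 probe sets higher and 5 lower.

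With the replicate block 7 subunit genes were higher and 1 probe set lower in MM.1R, 0 genes had a lower effect in MM.1R than in MM.1S, and 1 was higher in INA-6 after coculture. Deviations of arrays with the same number correlated between the conditions at 0.38 in MM.1S, 0.58 in MM.1R and 0.078 in INA-6. Between arrays of different lines the correlations ran from -0.52 to 0.20. The main fit did not pair the arrays by number. The block takes 1 shift for all lines, so it does not cover a pairing within single lines.

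Without any 1 array the ranges were as follows. In MM.1S, 45 to 79 probe sets were higher and 1 to 2 lower, with a subunit median of 1.12 to 1.16, and COX6A2 changed by -0.89 to 0.72. In MM.1R, 3 to 29 subunit genes were higher and 0 to 1 lower, 8 to 47 probe sets higher and 0 to 5 lower, with a median of 0.37 to 0.41, and COX4I2 changed by -0.32 to 0.80 and COX7A1 by -0.50 to 0.79. In INA-6, 8 to 23 subunit genes were higher and 0 to 6 lower, 15 to 43 probe sets higher and 7 to 18 lower, with a median of 0.087 to 0.23 and a complex II median of -0.13 to 0.15. There SDHC changed by -0.13 to 0.15, SDHD by -0.32 to 0.054, NDUFV2 by -0.060 to 0.18, NDUFS3 by -0.0038 to 0.16, COX4I1 by -0.10 to 0.15, COX4I2 by -0.82 to 0.12, COX6A2 by -0.58 to 1.42, COX6B2 by -1.98 to 1.46, COX7A1 by -1.82 to 0.13 and COX7A2 by -0.14 to 0.054. COX6B2 in the common effect ran between -0.73 and 0.41. The F-test called 21 to 47 subunit genes, the effect in INA-6 was higher for 0 to 8 and lower for 16 to 34, and that in MM.1R lower than in MM.1S for 0 to 37. Among cells alone MM.1R was higher than MM.1S for 0 to 42 and INA-6 lower for 6 to 17, and INA-6 after coculture was higher for 0 to 5 and lower for 5 to 32. Among the named genes 53 calls were lost and 23 gained over the fits that left out 1 array.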
